A study of Mus musculus with 13 samples.

Results

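Insertions of a Sleeping Beauty transposon inside exons of protein-coding genes were examined in 2 pools of F123 cells, embryonic stem cells of a CastX129 mouse hybrid. An insertion counted as exonic when it lay on chromosomes 1 to 19, within an exon of any transcript of a protein-coding gene, and more than 1000 bp from every protein-coding gene start. This held for 1073 of the 31892 sites of both pools, 1029 in the plasmid pool and 44 in the remobilized pool. Both pools are labelled wild type, were grown in serum-free 2i/LIF medium, come from 1 sequencing batch and were treated alike with T7 RNA polymerase on purified genomic DNA. In the remobilized pool, Sleeping Beauty expression had moved transposons out of their places in a parental line. In the plasmid pool they came from many copies of transfected plasmids, as a positive control. Each pool is 1 library with no replicate, so every test below takes sites as units and compares sites or libraries, not conditions. The plasmid pool held 78338 reads and the remobilized pool 2619, while a control without transposons held 1 read and 0 sites. The submitters' processing notes name the build mm10, and positions are 1-based coordinates of that assembly (GRCm38).

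The Sleeping Beauty transposase cuts the element out of its donor and joins it to a TA dinucleotide, which is duplicated. It is known to prefer a TA inside a short, AT-rich palindrome and to have little preference for genes. An exon of a protein-coding gene can hold coding sequence, which is read in triplets, or untranslated sequence before and after it. An exon can also belong only to transcripts without a reading frame, such as retained introns, and such bases are called other exon here. Coding sequence is generally richer in G and C than 3′ untranslated sequence.

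The sequences around a few exonic sites show the target. They were picked as examples with 3 to 38 reads, and the share of them with the outer bases in capitals is not that of all sites, which is given with the flanking bases. Each is given 5′ to 3′ on the strand of the gene, as 30 bases centred on a TA near the deposited base. Where several were in reach, the TA nearest its most frequent place relative to the deposited base was taken. The TA is in capitals. An A that lies 3 bases before it and a T that lies 3 bases after it are in capitals where both are present. The first 4 sequences are from the plasmid pool and the other 5 from the remobilized pool.
Nt5e, 3′ UTR, chr9:88370751-88370780: tcaggccagtcAgcTAgaTatcaagactca
Rab11fip1, 3′ UTR, chr8:27140807-27140836: gatctctgaaaAtgTAcaTgtatatttctg
Lactb, coding, chr9:66970887-66970916: actaatttcgcAttTAagTggaattcgtca
Otogl, coding, chr10:107821952-107821981: ggctgggttctacaTAgtaatatacttccc
Hnrnpa2b1, other exon, chr6:51464639-51464668: gaatagactttataTAacaaatatcttatg
Hnrnpa2b1, coding, chr6:51463422-51463451: gtggaaggagcagaTAttaagcttcttcct
Slc27a4, other exon, chr2:29807018-29807047: attatcaggccAtaTAcaTagctactttcc
Gpr84, coding, chr15:103308640-103308669: gcttcgccctcAgcTAcaTccccttcctgt
Kif11, coding, chr19:37390838-37390867: cgtacaagaacatcTAtaattgcaaccatt
The bases come from GENCODE M21 transcripts. The plasmid pool had a TA within 2 bp of its most frequent place relative to the deposited base at 965 of 1014 sites that could be evaluated, or 95.2% (95% exact Clopper-Pearson interval 93.7 to 96.4). The remobilized pool had it at 42 of 43 (97.7%, 87.7 to 99.9). The 2 shares did not differ detectably (Fisher's exact test, two-sided, adjusted p 0.717).

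Within the plasmid pool, coding sequence held fewer insertions for its length than untranslated sequence or introns. There were 250 coding sites on 31.5 Mb of coding sequence, a density of 7.93 per Mb (95% exact Poisson interval 6.98 to 8.97). The 3′ UTRs, on almost the same length of 31.6 Mb, held 464 sites, or 14.7 per Mb (13.4 to 16.1). The 5′ UTRs away from gene starts were short in total, 2.37 Mb, and held 19 sites, or 8.03 per Mb (4.84 to 12.5). Other exon bases held 296 sites on 17.9 Mb, or 16.5 per Mb (14.7 to 18.5). Introns of protein-coding genes, counted the same way, held 12117 sites at 13.7 per Mb (13.4 to 13.9), and sequence outside protein-coding genes 15843 sites at 11.4 per Mb (11.2 to 11.5).

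The density of coding sequence was 0.557 times that of untranslated sequence (interval 0.476 to 0.650, exact conditional binomial test, adjusted p over 13 density comparisons 1.17e-13). It was 0.580 times that of introns (0.510 to 0.657, exact test, adjusted p 2.05e-19). The 3′ UTRs were not detectably different from introns, with a ratio of 1.07 (0.978 to 1.18, exact test, adjusted p 0.168). The 5′ UTRs were below introns, at 0.587 times their density (0.353 to 0.918, exact test, adjusted p 0.0314), a call not kept with at least 2 reads per site (11 sites, ratio 0.609, exact test, adjusted p 0.145). Other exon bases exceeded introns by a factor of 1.21 (1.07 to 1.36, exact test, adjusted p 0.00513). All exons together were at 0.903 times the intron density (0.846 to 0.962, exact test, adjusted p 0.00513). This last difference was not past the threshold of 0.05 with at least 2 reads per site (ratio 0.952) and turned with at least 5 (ratio 1.03). Against sequence outside protein-coding genes, exons were denser, at 1.09 times its density (1.02 to 1.16, exact test, adjusted p 0.0231). Without windows of 100 kb that held at least 20 sites, this ratio was 1.06 (0.990 to 1.13) and no longer past the threshold (exact test, adjusted p 0.123). With those windows kept, it was 1.225 with at least 2 reads per site (exact test, adjusted p 1.16e-05). With at least 5 it was 1.49 (exact test, adjusted p 0.00735).

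The parts of an exon differ in how many targets they offer. Coding sequence had 32.5 TA per 1000 bases, 3′ UTRs 60.5, 5′ UTRs 38.6 and other exon bases 59.8. Counted per 1000 TA, the plasmid pool had 0.215 coding sites (0.187 to 0.245), 0.232 sites in 3′ UTRs (0.211 to 0.255), 0.208 in 5′ UTRs (0.125 to 0.325) and 0.264 in other exon bases (0.234 to 0.296). The ratio of coding to untranslated sequence per TA was 0.929, with an interval of 0.787 to 1.09 (exact test, adjusted p 0.405). Without windows of 100 kb that held at least 20 sites, it was 0.8655 (0.731 to 1.02, exact test, adjusted p 0.123). Without predicted and RIKEN models it was 0.861. With at least 5 reads per site, which left 11 coding and 37 untranslated sites at a TA, it was 0.581 (0.267 to 1.16), and the ratio per Mb was 0.311 (0.144 to 0.622). Coding sequence was below other exon bases per TA, at 0.814 times their rate (0.680 to 0.97, exact test, adjusted p 0.0370). This ratio was 0.767 without windows of 100 kb that held at least 20 sites (exact test, adjusted p 0.0108). With at least 2 reads it was 0.688 (exact test, adjusted p 0.00437). With at least 5 reads it was 0.442 and not past the threshold (exact test, adjusted p 0.0549). TA were not counted in introns, for which no sequence was used here.

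**Figure D1:**
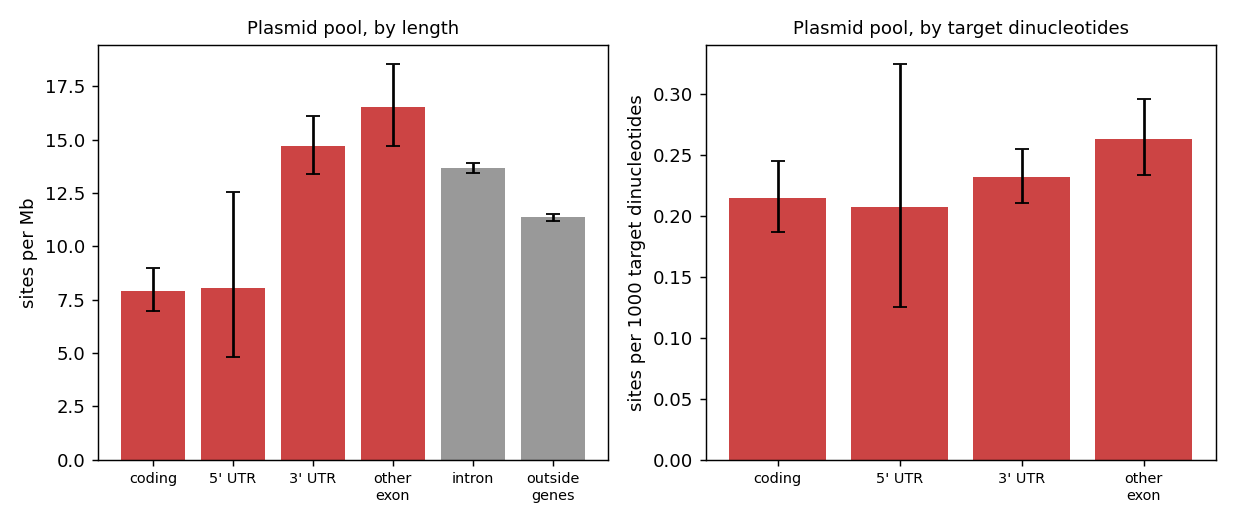
Insertion density of the plasmid pool by part of the gene, as sites per Mb (left) and as sites per 1000 TA dinucleotides (right), with 95% exact Poisson intervals as error bars; exonic parts are red. Coding sequence is at 7.93 per Mb against 14.7 in 3′ UTRs, and at 0.215 against 0.232 per 1000 TA.

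The bases beside the TA differed from those beside all exonic TA. Read along the deposited strand, 67.2% of 955 exonic sites of the plasmid pool had an A 3 bases before the TA, against 30.6% of all exonic TA. On the other side, 66.2% had a T 3 bases after it, against 30.6%. The base next to the TA moved less: an A directly before it was at 39.9% against 27.7%, and a T directly after it at 43.1% against 27.7%. The pattern ANNTANNT joins both outer bases. It reads the same on both strands, and it was chosen for counting after these shares were seen.

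ANNTANNT surrounded 369 of 962 plasmid pool sites at an exonic TA (38.4%, 35.3 to 41.5) and 9.73% of all exonic TA. The rate was 0.936 sites per 1000 TA with the pattern (0.843 to 1.04) and 0.162 without it (0.149 to 0.176), a ratio of 5.78 (5.06 to 6.59). The remobilized pool had the pattern at 14 of 42 sites (33.3%, 19.6 to 49.5), with a ratio of 4.64 (2.26 to 9.12). Restricting the plasmid pool to sites with the TA at the most frequent offset gave a ratio of 5.63. Exact conditional binomial tests, adjusted over 10 sets, gave p 7.19e-123, 2.82e-05 and 3.12e-92 for the 3 ratios, but the pattern was picked from the plasmid pool, so only the second comes from sites that did not choose it. The shorter pattern ATAT, also common around TA, had a ratio of 2.15 (1.80 to 2.55) in the plasmid pool.

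Each part of the gene had more sites per TA at TA with the pattern. Coding TA with it had 0.900 sites per 1000 (0.686 to 1.16) and coding TA without it 0.169 (0.144 to 0.198). In 3′ UTRs the rates were 0.900 (0.775 to 1.04) and 0.152 (0.134 to 0.172), and in other exon bases 1.04 (0.861 to 1.24) and 0.171 (0.146 to 0.200). The 5′ UTRs had 5 of their 19 sites at the pattern, with a ratio of 3.87 (1.09 to 11.4). Among TA with the pattern, the ratio of coding to untranslated sequence was 1.01 (0.742 to 1.36, exact test, adjusted p 0.941). Among TA without it the ratio was 1.10 (0.901 to 1.35, exact test, adjusted p 0.669). Both ratios keep the sites in windows of 100 kb with at least 20 sites, and were not computed without them. The pattern itself was scarcer in coding sequence, at 6.70% of TA, than in 3′ UTRs, at 10.8%.

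**Figure D2:**
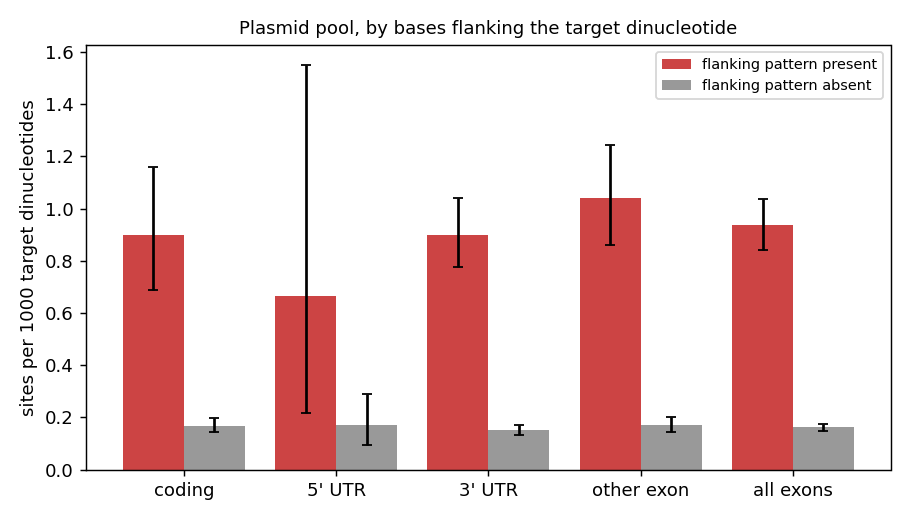
Sites of the plasmid pool per 1000 TA dinucleotides, for TA with an A 3 bases before and a T 3 bases after (red) and for all others (grey), by part of the gene, with 95% exact Poisson intervals. The red bars of coding sequence and 3′ UTRs are both at 0.900, and the grey bars at 0.169 and 0.152.

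Coding insertions were placed in the reading frame by the codon position of the T, in the transcript with the longest coding sequence of each gene. A TA starting at position 1 lies in a tyrosine codon (TAT or TAC), apart from the few in the codons TAA and TAG, which had 0 sites. A TA starting at position 2 ends a codon for isoleucine, leucine or valine, and a TA starting at position 3 spans 2 codons. Of 216 coding insertions of the plasmid pool, 73 were at position 1, 79 at position 2 and 64 at position 3. As shares these are 33.8% (27.5 to 40.5), 36.6% (30.1 to 43.4) and 29.6% (23.6 to 36.2). All coding TA divide into 28.4%, 31.9% and 39.6%.

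Position 3 was thus 10.0 percentage points below its share of TA (exact binomial test, adjusted p over 3 positions 0.00811). Position 1, 5.37 points above (exact test, adjusted p 0.124), and position 2, 4.64 points above (exact test, adjusted p 0.145), did not pass. With TA required at the most frequent offset, position 3 was at -7.38 points and no longer past the threshold (exact test, adjusted p 0.127). With sites near gene starts kept, position 2 passed, at 9.10 points (exact test, adjusted p 0.00315), but not when windows of 100 kb with at least 20 sites were also left out (4.21 points, exact test, adjusted p 0.194). With at least 5 reads, which left 10 sites, position 2 passed at 38.1 points (exact test, adjusted p 0.0459) and position 3 did not, at -19.6 points (exact test, adjusted p 0.333). The position 2 sites among these 10 included those of the predicted genes Gm21738 and Gm10719, which are described with the strands. The pattern ANNTANNT surrounded 4.26% of coding TA at position 3, against 8.22% at position 1 and 8.31% at position 2. Among TA with the pattern the rate at position 3 was 0.980 per 1000 (0.560 to 1.59), beside 0.834 and 0.971 at positions 1 and 2. Among those without it the rate was 0.120 at position 3 (0.0870 to 0.161), beside 0.192 (0.142 to 0.254) and 0.176 (0.131 to 0.232).

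Among single codons, ATA, which encodes isoleucine, had the highest rate, with 38 sites or 0.470 per 1000 (0.333 to 0.645). The other codons ending in TA were lower, with 0.155 for CTA (0.0825 to 0.265), 0.179 for GTA (0.0977 to 0.300) and 0.185 for TTA (0.101 to 0.311). Of the tyrosine codons, TAT had 43 sites, or 0.344 per 1000 (0.249 to 0.463), and TAC had 30, or 0.189 (0.127 to 0.270). The interval of ATA lies above those of the other codons ending in TA, while those of TAT and TAC overlap.

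**Figure D3:**
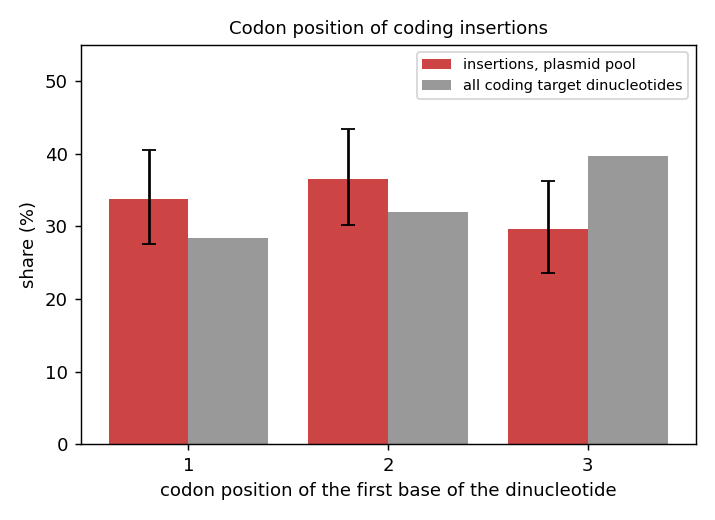
Codon position of the T of the target dinucleotide for 216 coding insertions of the plasmid pool (red, with 95% exact Clopper-Pearson intervals) and for all coding TA (grey). At position 3 the insertions are at 29.6% and the coding TA at 39.6%.

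Along the coding sequence no stretch stood apart from its share of TA. The coding sequence was divided into 4 equal stretches, which from start to stop held 42, 66, 53 and 55 of 216 sites, and 21.3%, 26.3%, 26.5% and 25.9% of the TA. As shares the sites were at 19.4% (14.4 to 25.4), 30.6% (24.5 to 37.2), 24.5% (18.9 to 30.8) and 25.5% (19.8 to 31.8), so that each interval held the share of TA. The 4 stretches of the 3′ UTR held 84, 95, 96 and 92 of 367 sites, for 23.3%, 24.5%, 24.7% and 27.5% of the TA. Outside windows dense in sites, which are described with the strands, internal exons had 0.210 coding sites per 1000 TA (0.179 to 0.246) and last exons 0.212 (0.156 to 0.281).

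The strand given to a site was compared with the strand of its gene. Whether this strand is that of the transposon is not given in the sources used here. In the plasmid pool, 489 of 1023 exonic sites were on the strand of the gene, or 47.8% (44.7 to 50.9, exact binomial test against equal shares, adjusted p over 4 sets 0.225). This share passed with exons of protein_coding transcripts alone, at 45.1% (exact test, adjusted p 0.0382), and with sites near gene starts kept, at 45.5% (exact test, adjusted p 0.00506). Neither call was kept when windows of 100 kb with at least 20 sites were also left out, with 46.9% (exact test, adjusted p 0.251) and 49.2% (exact test, adjusted p 0.618). The untranslated sites were at 46.5% (41.9 to 51.0, exact test, adjusted p 0.225). Coding sites were at 42.5%, 105 of 247 (36.3 to 48.9, exact test, p 0.0218 before and 0.0872 after adjustment), and at 34.5% with sites near gene starts kept (exact test, adjusted p 1.07e-07). Without the dense windows that last share was 46.6%, 108 of 232, and did not pass (exact test, adjusted p 0.602). Coding and untranslated sites did not differ detectably from each other (Fisher's exact test, two-sided, p 0.345). Their difference of -3.95 percentage points was -12.8 with sites near gene starts kept (Fisher's exact test, p 0.000296), and -0.743 when the dense windows were also left out (Fisher's exact test, p 0.874). It turned to 2.85 with at least 2 reads per site (Fisher's exact test, p 0.597). With at least 5 it was 41.1, 8 of 11 coding against 12 of 38 untranslated sites (Fisher's exact test, p 0.0333).

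Coding sites opposite to the gene were frequent in a few predicted genes. Windows of 100 kb with at least 20 plasmid pool sites held 27 coding sites with a gene strand, and 0 of them were on the strand of the gene (0 of 27, interval 0 to 12.8%). Without these windows the coding share was 47.7%, 105 of 220 (41.0 to 54.6). The densest, with 156 sites, lay at the start of chromosome 9 and held 26 coding sites, in Gm10717, Gm10719, Gm10721, Gm10722 and Gm11168. These sites may not be independent of each other, so the interval over 27 may be too narrow. Gm10717, on the plus strand at chr9:3025417-3033289, had 15 coding sites with 21 reads in all, every one on the opposite strand. Gm10719, at chr9:3017408-3021593, had 7 coding sites, also all opposite. Gm21738 on chromosome 14, outside those windows, had 4 coding sites, all opposite, and among them the best supported exonic site of the plasmid pool, with 35 reads at position 19417229. Values given without the dense windows therefore still include these 4 sites.

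Some of these sites share their sequence, shown here because the same letters occur at several places. The same 30 bases surrounded 3 sites in Gm10717 and Gm10719, and another 30 bases 2 sites in Gm10717 and Gm11168.
Gm10717 and Gm10719: cgtcctaaagtgtgTAtttctcattttccg
Gm10717 and Gm11168: cagttttcttgccaTAttccatgtcctaca
Both read like the unit of the mouse major satellite, a repeat of pericentromeric heterochromatin. Among 931 plasmid pool sites with 30 exonic bases around the TA, 14 had a window found at another site, as 6 different windows. The others were in gene copies such as Gsdmc2 and Gsdmc3, gasdermin genes. How reads with several matches were placed is not given in the sources used here.

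Other exon bases had 54.4% of 296 sites on the strand of the gene (48.5 to 60.2) and 3′ UTRs 46.0% of 461 (41.4 to 50.7). These intervals reach equal shares, and so do those of the remobilized pool, where 25 of 44 exonic sites were on the strand of the gene (56.8%, 41.0 to 71.7, exact binomial test, adjusted p 0.451).

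**Figure D4:**
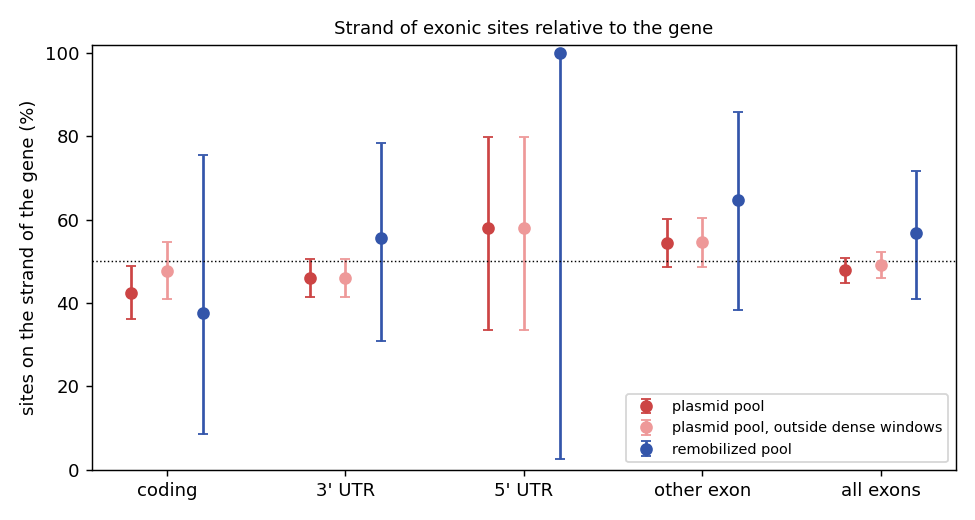
Share of exonic sites on the strand of the gene, by part, with 95% exact Clopper-Pearson intervals, for the plasmid pool (red), the same pool outside windows of 100 kb with at least 20 sites (pink) and the remobilized pool (blue). The coding share of the plasmid pool moves from 42.5% to 47.7% without those windows.

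The pools were then compared by how often their sites were exonic. Among remobilized sites away from gene starts, 44 of 704 were exonic, or 6.25% (4.58 to 8.30). In the plasmid pool 1029 of 28989 were, or 3.55% (3.34 to 3.77). The odds ratio was 1.81 (Fisher's exact test, two-sided, adjusted p over 3 pool comparisons 0.00137). With exons of transcripts of the biotype protein_coding alone, 26 and 715 sites remained and the difference fell from 2.70 to 1.23 percentage points, no longer past the threshold (Fisher's exact test, adjusted p 0.147). With at least 2 reads per site the difference was 4.03 points, 32 of 405 against 606 of 15648 (Fisher's exact test, adjusted p 0.000715). With at least 5 it was 7.61 points, 13 of 108 against 76 of 1716 (Fisher's exact test, adjusted p 0.00499).

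By part, other exon bases held 17 sites of the remobilized pool, 2.41% against 1.02% in the plasmid pool (odds ratio 2.40, Fisher's exact test, adjusted p over 3 parts 0.00586). Untranslated sequence held 19, 2.70% against 1.67% (Fisher's exact test, adjusted p 0.0777). Coding sequence held 8, 1.14% (0.492 to 2.23) against 0.862% (0.759 to 0.976), with an adjusted p of 0.407 by Fisher's exact test. Of exonic sites, 18.2% were coding in the remobilized pool (8.19 to 32.7) and 24.3% in the plasmid pool (21.7 to 27.0), which did not differ detectably (Fisher's exact test, adjusted p 0.706).

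Chromosome 6 held 237 of the 704 remobilized sites, and 13 of the 44 exonic ones, 29.5% (16.8 to 45.2). In the plasmid pool 53 of 1029 did, 5.15% (odds ratio 7.72, Fisher's exact test, adjusted p 1.29e-06). Exonic sites of the remobilized pool were not detectably more or less often on chromosome 6 than its other sites, of which 33.9% lay there (Fisher's exact test, adjusted p 0.623). Away from chromosome 6 the exonic share was 6.64% against 3.58% (odds ratio 1.91, Fisher's exact test, adjusted p over 2 sets 0.00313). On chromosome 6 it was 5.49% against 3.05% (odds ratio 1.84, Fisher's exact test, adjusted p 0.0792).

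Of the 13 exonic sites on chromosome 6, 7 lay in 3 genes within 131.5 kb of each other, Nfe2l3, Hnrnpa2b1 and Snx10. The plasmid pool had 0 exonic sites in these genes. Hnrnpa2b1, which encodes an RNA-binding protein of the spliceosome and of RNA transport, had 3 sites. The best supported exonic site of the remobilized pool was among them, with 38 reads at position 51464654 in an other exon base. The second, with 8 reads at 51463437, lay in a tyrosine codon of exon 11 of 12, and the third, at 51465847, had 2 reads. Nfe2l3, a transcription factor of the cap'n'collar family, had 6 reads at 51457799, in an isoleucine codon of its last exon, and 3 at 51436746. Snx10, a sorting nexin of endosomes, had sites at 51562986 and 51568262 with 2 reads each. All 7 sites were on the strand of their gene, which is plus for Nfe2l3 and Snx10 and minus for Hnrnpa2b1. Elsewhere 18 of 37 exonic sites of this pool were, or 48.6%. This grouping was made after the values were seen and was not tested.

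The 8 coding sites of the remobilized pool held 38 reads. Besides those of Hnrnpa2b1 and Nfe2l3 they were in 6 genes. Mansc4 had 7 reads. Eif2b2, a subunit of the exchange factor of translation initiation factor eIF2, had 6 reads in a tyrosine codon of its last exon. Gpr84, a receptor for medium-chain fatty acids, had 6 reads, and Kif11, the motor that separates spindle poles in mitosis, had 3 in exon 8 of 22. Htt, which encodes huntingtin, and Ighmbp2, a helicase, had 1 each.

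The other well supported sites of the remobilized pool were mostly in other exon bases. Nsd1, a histone H3 lysine methyltransferase, had 17 reads, Slc27a4, a fatty acid transporter, 12, Klhl12, a substrate adaptor of a cullin ubiquitin ligase, 8, and Lpin1, a phosphatidate phosphatase, 7. Zbtb37, a zinc finger protein, had 11 reads in its 3′ UTR. Of these 5, Nsd1 and Slc27a4 were hit on the strand opposite to the gene.

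In the plasmid pool the best supported sites after Gm21738 had 10 to 17 reads and were all outside coding sequence. Nt5e, the ectonucleotidase that makes adenosine from AMP, had 17 reads in its 3′ UTR. Entpd5, another nucleotide phosphatase, had 14 in an other exon base and Ptar1 12 in its 3′ UTR. The 3′ UTRs of Mgam, an intestinal glucosidase, and Lysmd3 had 11 each, and that of Rab11fip1, an effector of Rab11 in endosome recycling, had 10. Unc5c, a netrin receptor, had 11 and Atr, a kinase of the DNA damage checkpoint, 10, both in other exon bases. Coding sites with at least 5 reads, a limit set after the values were seen, numbered 11. They included Tent5b, Lactb and Acsl5 with 7 reads each, Ints6 and Olfr194 with 6, and Bach2, Gcnt3, Nifk and Otogl with 5.

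Exonic sites had a single read less often than the other sites as a whole. In the plasmid pool 41.1% of 1029 exonic sites had 1 read (38.1 to 44.2), against 46.2% of 27960 other sites away from starts (45.6 to 46.8). In the remobilized pool the shares were 27.3% of 44 (14.96 to 42.8) and 43.5% of 660 (39.7 to 47.4). Fisher's exact test gave two-sided adjusted p-values of 0.00258 and 0.0403. Of the other sites of the plasmid pool, intronic ones had 1 read in 44.2% of cases (43.3 to 45.1), an interval that meets that of exonic sites, and those outside protein-coding genes in 47.8% (46.98 to 48.5). The median was 2 reads per site for exonic and for intronic sites in both pools. Coding sites of the plasmid pool had 1 read in 46.0% of cases (39.7 to 52.4), 3′ UTR sites in 40.7% (36.2 to 45.4) and other exon sites in 37.5% (32.0 to 43.3).

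**Figure D5:**
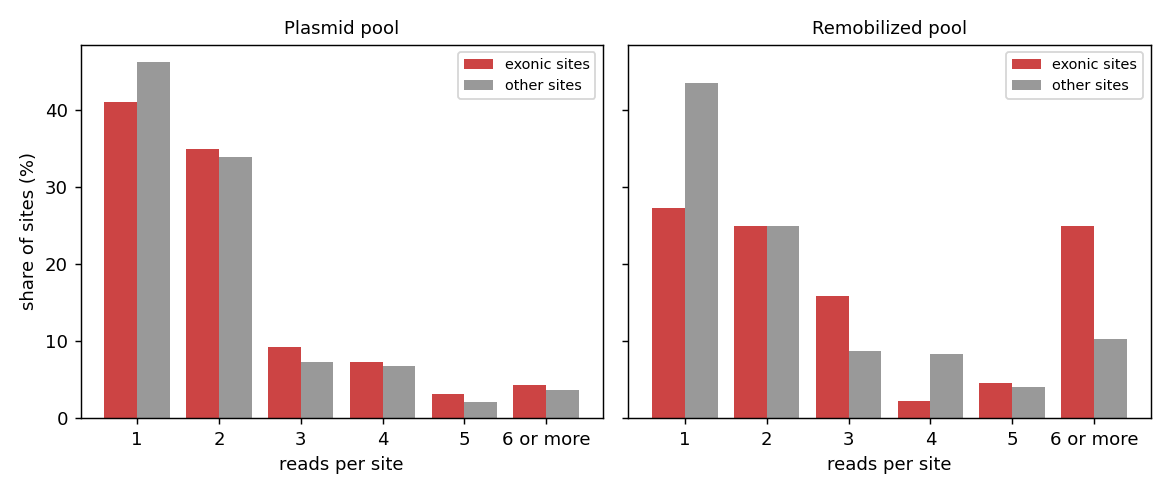
Share of sites by number of reads per site for exonic sites (red) and other sites away from gene starts (grey), in the plasmid pool (left) and the remobilized pool (right). Sites with 1 read make up 41.1% and 46.2% in the plasmid pool, and 27.3% and 43.5% in the remobilized pool.

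The exonic sites of the plasmid pool fell into many genes. Of 20119 protein-coding genes with exon bases away from starts, 967 had a site (4.81%), and 913 of these had 1 site, 50 had 2 and 4 had 3 or more. The 4 were Gm10717, Gm10719, Gm21738 and Sfi1, whose 3 sites were in other exon bases. Genes with a site were long, with a median of 5.95 kb of exon against 3.25 kb for all genes. The remobilized pool had sites in 39 genes.

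Gene lists were counted whole in the plasmid pool, beside the 4.81% of all protein-coding genes with a site and their 12.3 sites per Mb of exon (11.6 to 13.1). Pluripotency genes had sites in 2 of 23 (8.70%), or 23.0 per Mb (2.78 to 83.0), in the 3′ UTRs of Klf4 and Klf5, both Krüppel-like factors of the stem cell network. Genes of cohesin and chromatin loops had sites in 1 of 9 (11.1%), or 25.9 per Mb (3.13 to 93.5). This was Pds5a, a regulator of cohesin, with 1 site in its 3′ UTR and 1 in an other exon base. Ribosomal protein genes had sites in 3 of 83 (3.61%), or 18.4 per Mb (3.804 to 53.9), in Rpl6, Rpl35a and Rps24, with 0 in coding sequence. Proteasome subunits had 0 sites in 39 genes, whose exons total 0.108 Mb. An interval of 0 to 34.3 sites per Mb shows how little this short length can tell. Protocadherins had sites in 5 of 67 genes (7.46%), or 21.7 per Mb (7.03 to 50.5), and collagens in 3 of 43 (6.98%), or 9.22 per Mb (1.90 to 27.0). The intervals of these lists all hold the value over all genes.

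Larger families had narrower intervals. Zinc finger genes, here those with a Zfp symbol and a number, had 28 sites in 28 of 384 genes (7.29%), 15.6 per Mb (10.3 to 22.5), and 12 of them were coding. Olfactory receptors had 38 sites in 36 of 1061 genes (3.39%), 11.8 per Mb (8.32 to 16.1), of which 2 were coding and 36 untranslated. Their exons had 71.7 TA per 1000 bases, against 49.1 over all genes. Per 1000 TA they had 0.160 sites, against 0.2385 over all genes, a difference that was not tested. Predicted models had 57 sites in 32 of 980 genes (3.27%), 36.7 per Mb (27.8 to 47.6), of which 39 were coding. Of these, 27, all coding, lay in the windows with at least 20 sites, and without those windows 30 sites remained, at 19.4 per Mb (13.1 to 27.7). Genes with RIKEN names had 11 sites in 11 of 499 genes (2.20%), 8.87 per Mb (4.43 to 15.9). In the remobilized pool these 10 lists held 0 exonic sites, which for the Zfp genes, a list without Zbtb37, allows up to 2.05 per Mb, beside 0.528 over all genes (0.383 to 0.709).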

How the data were processed

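The labels describe 13 samples, and files of 12 were read; the 2 pools carry the comparisons. The authors deposited, per the file contents, whole-number read counts per single base and strand, with no normalization stated. The submitters' processing notes name mm10, BWA, FastQC and deepTools. The filters, the treatment of duplicates and the placing of reads with several matches are not given in the sources used here, and the counts carry no molecular identifiers. The remobilized pool held 2619 reads and the plasmid pool 78338, of which 2116 and 63031 had a position. The control held 1 read without a position.

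Positions within 10 bp were merged into 1 site at the position with most reads. Parts were taken from GENCODE M21, coding first, then 3′ UTR, then 5′ UTR; stop codons fell into the 3′ UTR. Lengths and TA were counted in the same parts, from transcript sequences. Rates have exact Poisson intervals, shares exact Clopper-Pearson intervals at 95%, and both cover counting error only. Tests were Fisher's exact, exact binomial and exact conditional binomial tests, two-sided, with Benjamini-Hochberg adjustment in each family and a threshold of 0.05. Neighbouring sites may share an origin, so p-values may be too small. Scripts used Python 3.11.15 and scipy 1.17.1 and were tested on simulated data.

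Sites named are the 10 best supported exonic sites of each pool, exonic sites of clones, sites in both pools (0 were found within 10 bp), genes with 3 or more sites, and the gene lists; 1 of these sites is not reported here. Members and lists were chosen with earlier results of these data known. The following were added after results were seen: the pattern ANNTANNT and the ATAT count, the density comparisons beyond coding against untranslated and exons against introns, the comparisons by chromosome 6 and by part between pools, the read support of the remobilized pool, and the search for recurring windows. The 8 coding sites of the remobilized pool, the genes hit in both pools and the sequences printed were also chosen after their values were seen.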

Additional observations from a re-analysis of the deposited data

Results flagged for a closer look

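Exonic sites were also found in the clonal lines, which the comparisons did not use. The 9 clones, of rad21-dTag genotype and from another sequencing batch, had 57 sites, of which 3 were exonic, with 4 reads in all. In the pools, 6.25% (remobilized) and 3.55% (plasmid) of sites away from starts were exonic. The control had 1 read, without a position, so it could hold 0 sites. The 2Mb clone had 2 of the 3 exonic sites in an other exon base of Arsb, a lysosomal sulfatase, at chromosome 13 positions 93873737 (1 read) and 93873802 (2 reads). The 5kb clone had 1, with 1 read, in the 3′ UTR of Npat, a regulator of histone genes, at chromosome 9 position 53572904. A TA was found within reach of 0 of these 3 sites.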

How the results depend on the processing

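Of 237 alternative values for 30 results, 196 kept their direction and side of the threshold, or stayed within 1.5 times a count. The density of coding against untranslated sequence per Mb kept both under every alternative run. Alternatives for 10 of the density ratios were chosen after seeing the data. No paired analysis was possible because each group is 1 library. With at least 2 reads per site, 606 exonic sites of the plasmid pool were left, the ratio of exons to introns was 0.952, and the coding minus untranslated share on the gene's strand, -3.95 points, turned to 2.85. With at least 5 reads, 76 and 13 exonic sites were left in the plasmid and remobilized pools. Then the exon to intron ratio was 1.03, 5′ to 3′ UTRs per TA turned to 1.20 (2 sites in 5′ UTRs), the coding share of the remobilized pool was 24.0 points above that of the plasmid pool, the coding share on the gene's strand was 72.7% (41.1 points above the untranslated one), codon positions 1, 2 and 3 were at -18.4, 38.1 and -19.6 points, and TA shares were 97.4% and 100%. With sites near starts kept, the strand share passed the threshold, at 45.5% for exonic and 34.5% for coding sites, 12.8 points (-12.8) from the untranslated one, codon position 2 was at 9.10 points, coding to untranslated per TA was 1.06, and the TA share was 92.7%. Leaving out dense windows as well, an alternative chosen after seeing the data, ended these calls: 49.2% for exonic and 46.6% for coding sites, -0.743 points between coding and untranslated sites, and 4.21 points at codon position 2. With protein_coding transcripts only, 26 remobilized exonic sites were left, the pool difference was 1.23 points, and strand shares were 45.1% (plasmid, exonic, now past the threshold) and 50% (remobilized). Without dense windows as well, also chosen after seeing the data, these were 46.9% (no longer past) and 50%, and the strand difference was 1.61 points. With TA at the most frequent offset only, TA shares were 73.6% and 74.4% and codon position 3 was at -7.38 points. Predicted models had 19.4 sites per Mb without dense windows, also chosen after seeing the data. Merging within 1000 bp gave a TA share of 96.5% and a strand difference of 1.24 points; that difference was 1.27 without dense windows and 1.64 without predicted and RIKEN models. The cause was not tested, beyond the fewer sites that each stricter limit leaves. The remobilized pool had 8 coding sites, which limits the precision of its shares.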

Other observations

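Both pools had an exonic site in 6 genes, at different positions. This is 15.4% of the 39 genes hit in the remobilized pool and 0.620% of the 967 hit in the plasmid pool, beside 4.81% of all genes hit in the plasmid pool. Genes hit in the remobilized pool had a median of 6.09 kb of exon, against 3.25 kb for all genes. These were Htt, Ighmbp2, Kmt5b (a histone H4 methyltransferase), Nfatc3 (a calcium-regulated transcription factor), Nsd1 and Tia1 (an RNA-binding protein of stress granules). The nearest sites of the 2 pools were 1109 bp apart in Nsd1 and 8405 bp or more in the others.

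The exonic densities counted in the plasmid pool ran from 9.498 sites per Mb of exon on chromosome 17 and 9.504 on chromosome 7 to 17.7 on chromosome 13 and 18.9 on chromosome 18. Whether chromosomes differ was not tested, and the density of all sites per chromosome was not set beside these values. The 16.7 on chromosome 9 includes the 26 sites of the dense window at its start.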
